A study of Mus musculus with 8 samples.

Results

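The 6 simple epithelium keratin genes Krt7, Krt8, Krt18, Krt19, Krt20 and Krt23 were taken by name from the 38355 genes counted in 8 mouse colon tumours. Each tumour came from a mouse treated with the colon carcinogen azoxymethane. In 4 Trp53ΔIECAktE17K tumours the tumour suppressor gene Trp53 was deleted in intestinal epithelial cells and AktE17K, an activated form of the kinase AKT, was present. In 4 Trp53ΔIEC tumours Trp53 was deleted in the same cells and AktE17K was absent. Azoxymethane and the Trp53 deletion were therefore common to both groups, and 1 whole tumour was taken from each mouse. The labels give neither strain nor age, and they do not name the driver of the deletion or of AktE17K. The comparison asks what activated AKT adds to colon tumours whose epithelium lacks Trp53.

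Keratins are the intermediate filament proteins of epithelial cells. A filament forms only from heterodimers of a type I and a type II chain, so a cell needs at least one keratin of each type. In the intestine Krt8 is the main type II chain, and Krt18, Krt19 and Krt20 are its type I partners. Krt7 is a second type II chain, known from ducts, glands and mesothelium more than from colon epithelium. Krt20 is a marker of differentiated cells at the top of the colon crypt, and Krt23 is a type I keratin known as a stress-induced keratin of bile ductules in mouse liver. Simple epithelia differ in this from stratified, squamous epithelia, which use Krt5, Krt14 and related chains.

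Reads assigned to genes numbered 18572180 to 26268547 per tumour. All 6 keratins passed the filter on low counts, with between 305 reads (Krt23 in Trp53ΔIECAktE17K replicate 3) and 72318 reads (Krt19 in Trp53ΔIECAktE17K replicate 4) in a tumour. Together they took 0.407% to 0.740% of the assigned reads in Trp53ΔIECAktE17K tumours and 0.536% to 0.711% in Trp53ΔIEC tumours. Levels within a gene are given as TMM-scaled CPM, in which reads of a gene are divided by its tumour's scaled total, and levels between genes as CPM per kilobase of exon. Whole tumours mix epithelium with other cells, so fewer epithelial cells and less keratin RNA per cell cannot be told apart here. Trp53 itself had 24.8, 29.5, 37.1 and 24.8 CPM in Trp53ΔIECAktE17K tumours and 25.8, 25.2, 24.2 and 20.8 CPM in Trp53ΔIEC tumours. Such total levels from mixed cells do not check either genotype.

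None of the 6 simple keratins passed the test between Trp53ΔIECAktE17K and Trp53ΔIEC tumours (edgeR quasi-likelihood, Benjamini-Hochberg over 16539 genes, adjusted p under 0.05). Over all genes tested 4.20% passed. No member had an unadjusted p under 0.05 in edgeR either, where 20.8% of all genes did, and the groups overlapped in all 6 members, whereas 14.2% of all genes had no overlap. DESeq2 and limma-voom also called 0 of the 6, against 12.1% and 3.13% of all genes in those tools, and each gave Krt23 alone an unadjusted p under 0.05 (0.0339 and 0.0453). The 6 estimates lay on both sides of 0, at log2 fold changes of 0.84 for Krt20, 0.38 for Krt7, -0.27 for Krt19, -0.32 for Krt18, -0.45 for Krt8 and -1.46 for Krt23. Their median was -0.29, beside 0.01 for all genes tested. A p that misses the threshold does not show equal levels, and the 95% intervals below give the sizes that remain possible.

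**Figure D1:**
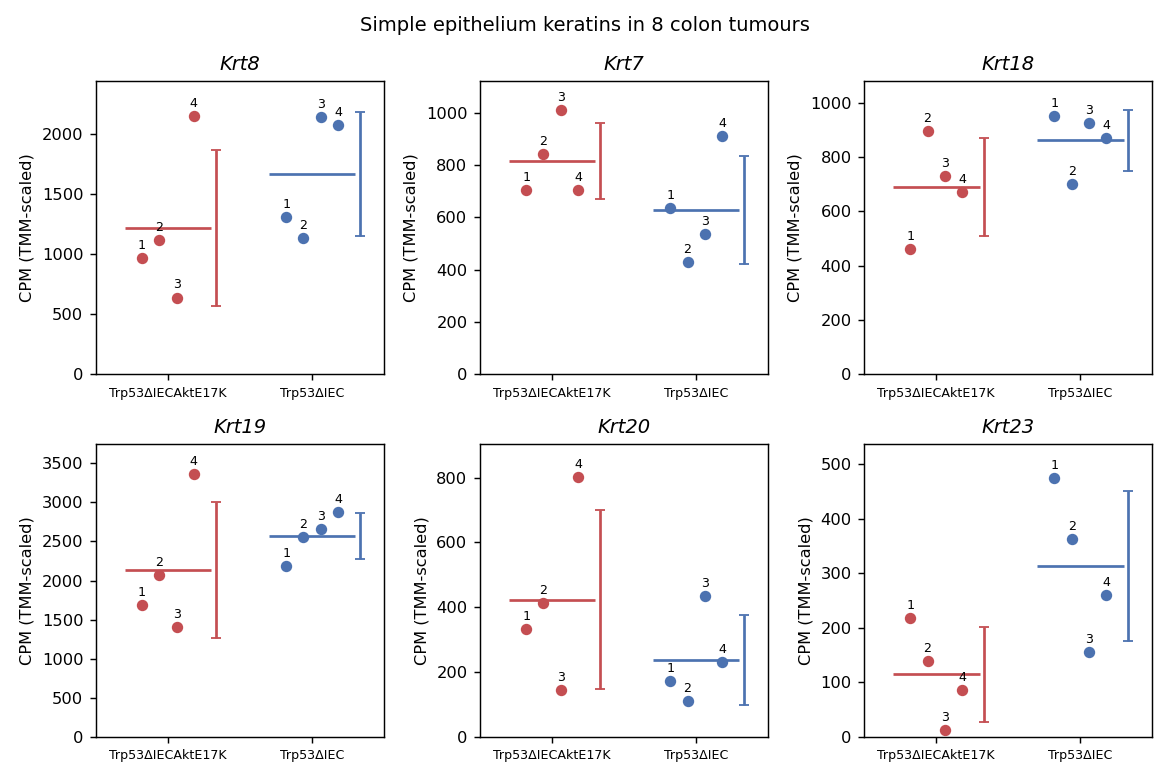
TMM-scaled CPM of the 6 simple keratins (y axes, each from 0) in 4 Trp53ΔIECAktE17K (red, left) and 4 Trp53ΔIEC (blue, right) colon tumours; points are single tumours with their replicate number, horizontal lines the means and vertical bars the SD. The groups overlap in every panel, and Trp53ΔIECAktE17K replicate 4 is the highest tumour for Krt8, Krt19 and Krt20.

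Krt8 (ENSMUSG00000049382, chromosome 15, 101996698 to 102004482, minus strand, GRCm38, the same assembly as mm10) had 967, 1121, 639 and 2148 CPM in Trp53ΔIECAktE17K replicates 1 to 4 and 1309, 1135, 2142 and 2073 CPM in Trp53ΔIEC replicates 1 to 4. Of the Trp53ΔIECAktE17K tumours 3 lay below all Trp53ΔIEC tumours and the other one, replicate 4, lay above them all. The means were 1219 ± 652 and 1665 ± 517 CPM (SD, n = 4 each), and the log2 fold change was -0.45 with a 95% interval of -1.32 to 0.42 (edgeR adjusted p = 0.545). Without Trp53ΔIECAktE17K replicate 4 it was -0.89 (adjusted p = 0.135). In the annotated Krt8 transcript 26.9% of the runs of 50 bases also occur in the pseudogene Krt8-ps. Reads with several places in the genome were not counted for any gene, so the level of Krt8 may be understated in all tumours.

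Krt7 (ENSMUSG00000023039, chromosome 15, 101411043 to 101430313, plus strand), the other type II chain, had 704, 841, 1009 and 705 CPM in Trp53ΔIECAktE17K tumours and 637, 430.0, 535 and 911 CPM in Trp53ΔIEC tumours. The 4 Trp53ΔIECAktE17K tumours lay above 3 of the Trp53ΔIEC tumours, and Trp53ΔIEC replicate 4 lay above 3 of theirs. The means were 815 ± 145 and 628 ± 207 CPM (SD, n = 4 each), and the log2 fold change was 0.38, with a 95% interval of -0.18 to 0.93 (edgeR adjusted p = 0.422). Without Trp53ΔIEC replicate 4 it was 0.60 (adjusted p = 0.191). Krt7 was thus detected at 430.0 CPM or more in every tumour of both groups.

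Krt18 (ENSMUSG00000023043, chromosome 15, 102028180 to 102032027, plus strand), the classic type I partner of Krt8, had 462, 898, 731 and 670.1 CPM in Trp53ΔIECAktE17K tumours and 951, 699.7, 925 and 870.4 CPM in Trp53ΔIEC tumours. Replicates 1 and 4 of the Trp53ΔIECAktE17K group lay below all Trp53ΔIEC tumours and the other 2 lay among them. The log2 fold change was -0.32, with a 95% interval of -0.80 to 0.16 (edgeR adjusted p = 0.428). Of the 6 keratins Krt18 had the narrowest interval.

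Krt19 (ENSMUSG00000020911, chromosome 11, 100140810 to 100148665, minus strand), the type I chain that stands highest of the 6, had 1691, 2073, 1409 and 3368 CPM in Trp53ΔIECAktE17K tumours. In Trp53ΔIEC tumours it had 2183, 2554, 2655 and 2880 CPM. The pattern was that of Krt8, with Trp53ΔIECAktE17K replicates 1, 2 and 3 below all Trp53ΔIEC tumours and replicate 4 above them. The log2 fold change was -0.27, with a 95% interval of -0.88 to 0.34 (edgeR adjusted p = 0.617). Without Trp53ΔIECAktE17K replicate 4 it was -0.59 (adjusted p = 0.106).

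Krt20 (ENSMUSG00000035775, chromosome 11, 99428403 to 99438150, minus strand), the keratin of differentiated surface cells, had 333, 413, 144 and 802 CPM in Trp53ΔIECAktE17K tumours and 171, 111, 434 and 231 CPM in Trp53ΔIEC tumours. Both groups spread widely, 5.57-fold from the lowest to the highest Trp53ΔIECAktE17K tumour and 3.90-fold among Trp53ΔIEC tumours. Trp53ΔIECAktE17K replicate 4 lay above all Trp53ΔIEC tumours, and replicate 3 lay among the low ones. The means were 423 ± 277 and 237 ± 140.3 CPM (SD, n = 4 each), and the log2 fold change was 0.84, with a 95% interval of -0.44 to 2.11 (edgeR adjusted p = 0.434). It was 0.31 without Trp53ΔIECAktE17K replicate 4 and 1.28 without Trp53ΔIEC replicate 3 (adjusted p = 0.754 and 0.268).

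Krt23 (ENSMUSG00000006777, chromosome 11, 99477974 to 99493137, minus strand) had 218, 139.5, 12.8 and 86.5 CPM in Trp53ΔIECAktE17K tumours and 474, 363, 155 and 261 CPM in Trp53ΔIEC tumours. In 3 Trp53ΔIECAktE17K tumours Krt23 lay below all Trp53ΔIEC tumours, and replicate 1 lay above Trp53ΔIEC replicate 3 only. The spread was 17.0-fold within Trp53ΔIECAktE17K tumours and 3.05-fold within Trp53ΔIEC tumours. The means were 114 ± 86.7 and 313 ± 137 CPM (SD, n = 4 each). The log2 fold change was -1.46, with a 95% interval of -3.08 to 0.17 (edgeR adjusted p = 0.288), the lowest adjusted p of the 6. Trp53ΔIECAktE17K replicates 1 and 2 have the letter A in their titles, the other 6 tumours have B, and no source used here explains it. The names of the deposited tables give A to replicates 3 and 4 as well, so that there the letter follows the genotype and could not be fitted beside it. With the letters as in the titles Krt23 had -2.66 (edgeR adjusted p = 0.214). In that fit only Trp53ΔIECAktE17K replicates 3 and 4, at 12.8 and 86.5 CPM, are set against the Trp53ΔIEC tumours. The value also rests on which of the conflicting letters is right. Leaving out Trp53ΔIECAktE17K replicate 1 gave -1.99 and leaving out replicate 3 gave -1.07 (adjusted p = 0.233 and 0.223).

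Krt20 and Krt23 lie near each other on chromosome 11, in the same orientation and with estimates of opposite sign. Krt8 and Krt18 lie near each other on chromosome 15 and varied differently across the tumours. The promoter windows of these 4 genes are shown because in each pair nearby genes had unlike values. Each runs from 250 bases before to 50 bases after the RefSeq start, 5′ to 3′ on the gene's strand, on GRCm38.p6. They are chr11:99438104-99438403 (minus) for Krt20, chr11:99493071-99493370 (minus) for Krt23, chr15:102004293-102004592 (minus) for Krt8 and chr15:102027966-102028265 (plus) for Krt18. Capitals mark matches on either strand to the TATA box (letters TATAAA), the GC box (letters GGGCGG), the TEAD motif (letters GGAATG), the AP-1 motif (letters TGANTCA) and the E-box (letters CACGTG).
Krt20: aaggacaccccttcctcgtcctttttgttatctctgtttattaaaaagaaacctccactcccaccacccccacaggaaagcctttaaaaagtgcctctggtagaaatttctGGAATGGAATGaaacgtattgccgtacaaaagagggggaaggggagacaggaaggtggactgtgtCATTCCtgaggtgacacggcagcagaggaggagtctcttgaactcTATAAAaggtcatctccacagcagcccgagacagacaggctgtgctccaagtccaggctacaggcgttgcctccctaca
Krt23: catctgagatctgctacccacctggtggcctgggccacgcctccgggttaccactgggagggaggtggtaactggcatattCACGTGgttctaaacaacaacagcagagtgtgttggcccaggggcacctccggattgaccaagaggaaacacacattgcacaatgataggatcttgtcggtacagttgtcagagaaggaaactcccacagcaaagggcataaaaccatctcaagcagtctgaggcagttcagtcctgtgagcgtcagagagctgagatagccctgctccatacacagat
Krt8: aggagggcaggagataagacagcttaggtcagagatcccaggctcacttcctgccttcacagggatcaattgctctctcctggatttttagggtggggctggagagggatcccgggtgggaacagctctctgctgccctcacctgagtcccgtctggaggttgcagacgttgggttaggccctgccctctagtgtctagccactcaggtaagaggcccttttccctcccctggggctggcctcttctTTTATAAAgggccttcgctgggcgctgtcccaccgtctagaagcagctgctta
Krt18: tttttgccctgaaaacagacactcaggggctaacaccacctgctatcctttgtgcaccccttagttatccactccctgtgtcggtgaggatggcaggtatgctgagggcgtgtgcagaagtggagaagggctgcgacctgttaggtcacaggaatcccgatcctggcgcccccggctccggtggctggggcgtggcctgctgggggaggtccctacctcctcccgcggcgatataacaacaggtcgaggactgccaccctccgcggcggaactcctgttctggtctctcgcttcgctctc
The Krt20 window holds GGAATG or its reverse complement at 3 places, 2 of which overlap by 1 base, and a TATAAA that begins 29 bases before the start. The Krt23 window holds 1 CACGTG and none of the other 4 motifs, and the Krt8 window holds TATAAA on both strands in 1 overlapping run of 8 bases across the RefSeq start. None of the 5 motifs is in the Krt18 window, and the Krt7 window, not printed, holds GGGCGG at 4 places. Of 32851 mouse promoter windows of this length 13.6% hold TATAAA, 35.7% GGGCGG, 14.7% GGAATG, 7.81% TGANTCA and 7.15% CACGTG. These are matches of letters and no binding was measured.

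Per kilobase of exon the order of the 6 keratins was stable at the top and changed below. Krt19 stood first in all 8 tumours, with 1151 ± 467 CPM per kilobase in Trp53ΔIECAktE17K tumours and 1384 ± 157 in Trp53ΔIEC tumours (SD, n = 4 each). Krt8 followed with 622 ± 333 and 850.3 ± 264 CPM per kilobase, and Krt18 with 480.3 ± 125 and 599.5 ± 78.6. These neighbours in the order do not differ beyond their spread in Trp53ΔIECAktE17K tumours. There Krt8 stood above Krt18 in replicates 1 and 4 and below it in replicates 2 and 3. With coding lengths Krt8 stood above Krt18 in replicate 2 as well (762 and 707 CPM per kilobase). In all 4 Trp53ΔIEC tumours Krt8 stood above Krt18. Krt20 had 219.5 ± 144 and 123 ± 72.8 CPM per kilobase, Krt7 had 116 ± 20.5 and 89.1 ± 29.3, and Krt23 had 73.0 ± 55.4 and 200.2 ± 87.4. Krt23 stood last in 3 of the 4 Trp53ΔIECAktE17K tumours and in none of the Trp53ΔIEC tumours, and with coding lengths in all 4 and in 1. The place of Krt7 depends on the length used, since its annotated exons cover 7049 bases and its coding sequence 1371 bases. Per kilobase of coding sequence it had 594 ± 105 and 458 ± 151 CPM, beside 544 ± 142 and 679 ± 89.0 for Krt18. On that scale Krt7 stood above Krt18 in Trp53ΔIECAktE17K replicates 1 and 3 and below it in all 4 Trp53ΔIEC tumours.

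As shares of the 6 length-scaled levels, the main chains took nearly the same part in both groups. Krt19 made up 42.8% ± 2.24 in Trp53ΔIECAktE17K tumours and 42.9% ± 4.51 in Trp53ΔIEC tumours (SD, n = 4 each), Krt8 22.4% ± 4.15 and 25.7% ± 4.90, and Krt18 19.4% ± 7.33 and 18.6% ± 2.44. The mean shares of the minor chains lay further apart. Krt20 made up 7.64% ± 2.65 in Trp53ΔIECAktE17K tumours and 3.66% ± 1.84 in Trp53ΔIEC tumours, while Krt23 made up 2.91% ± 2.68 and 6.45% ± 3.37. The groups overlapped in every one of these shares. They are descriptions and were not tested.

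**Figure D2:**
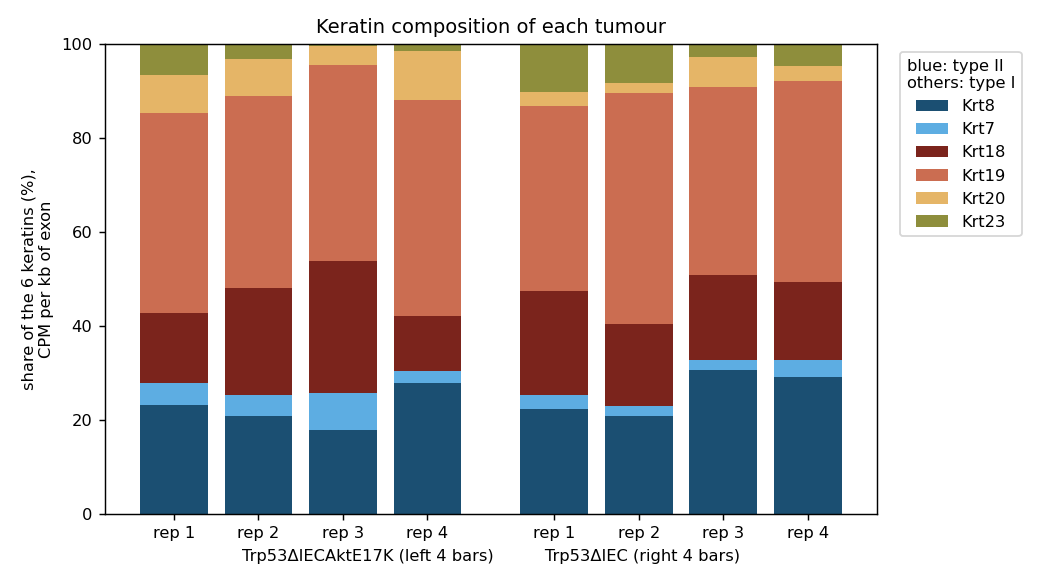
Share of each keratin in the summed length-scaled level of the 6 (y axis, percent of CPM per kilobase of exon) in 4 Trp53ΔIECAktE17K tumours (left bars) and 4 Trp53ΔIEC tumours (right bars), with type II chains in blues and type I chains in the other colours. Krt19 is the largest band in all 8 tumours, and the Krt23 band ranges from 0.450% in Trp53ΔIECAktE17K replicate 3 to 10.1% in Trp53ΔIEC replicate 1.

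Because type I and type II chains pair, their balance within a tumour was set out as ratios of length-scaled levels. The sum of the type II chains over the sum of the type I chains was 0.384, 0.338, 0.347 and 0.435 in Trp53ΔIECAktE17K tumours and 0.340, 0.298, 0.488 and 0.486 in Trp53ΔIEC tumours. On this RNA scale type I chains thus exceeded type II chains in every tumour, also with coding lengths (0.535 ± 0.0662 and 0.487 ± 0.108). Because Krt8 may be understated, as given above, this ratio and the Krt8 to Krt18 ratio may be understated too. The Krt8 to Krt18 ratio was 1.53, 0.916, 0.641 and 2.35 in Trp53ΔIECAktE17K tumours and 1.01, 1.19, 1.70 and 1.75 in Trp53ΔIEC tumours. The mean ratio was 1.36 ± 0.759 and 1.41 ± 0.368 (SD, n = 4 each), so the partners kept a similar mean balance while single Trp53ΔIECAktE17K tumours lay further apart. The Krt7 to Krt19 ratio was 0.110, 0.107, 0.188 and 0.0551 in Trp53ΔIECAktE17K tumours and 0.0768, 0.0443, 0.0530 and 0.0833 in Trp53ΔIEC tumours. The Krt20 to Krt23 ratio differed most, at 1.24, 2.41, 9.13 and 7.53 in Trp53ΔIECAktE17K tumours and 0.293, 0.249, 2.27 and 0.720 in Trp53ΔIEC tumours. Krt20 exceeded Krt23 in all 4 Trp53ΔIECAktE17K tumours and in 1 of the 4 Trp53ΔIEC tumours, replicate 3, which lay above the lowest Trp53ΔIECAktE17K tumour. No ratio separated the groups.

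**Figure D3:**
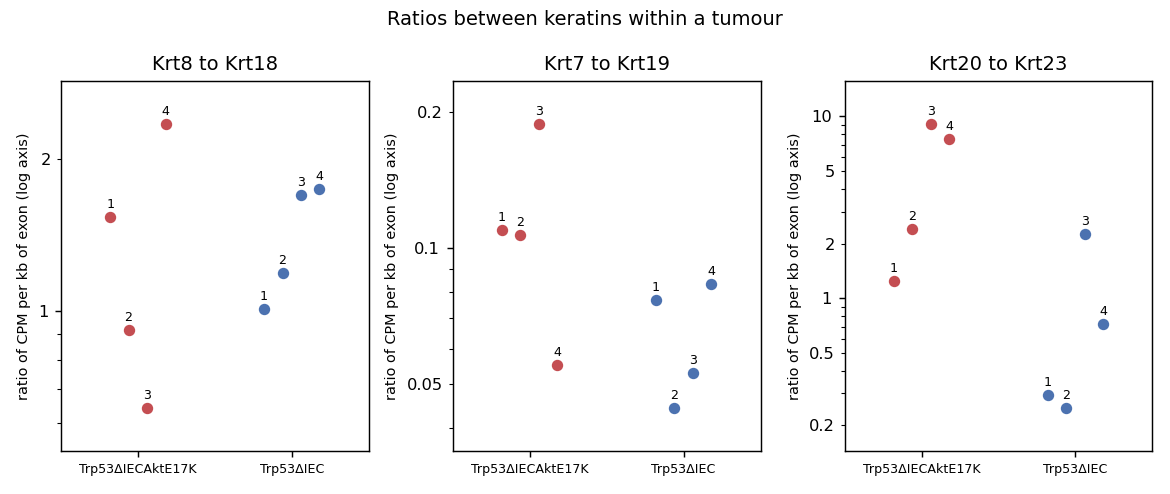
Ratios of length-scaled levels (y axes, logarithmic) of Krt8 to Krt18, Krt7 to Krt19 and Krt20 to Krt23 in Trp53ΔIECAktE17K (red, left) and Trp53ΔIEC (blue, right) tumours; points are single tumours with their replicate number. The groups overlap in all 3 panels, in the Krt20 to Krt23 panel only through Trp53ΔIEC replicate 3 (2.27) and Trp53ΔIECAktE17K replicate 1 (1.24).

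Likeness across the 8 tumours differed from pair to pair of the 6 keratins. As a description, Pearson's r of log2 CPM over the 8 tumours was 0.92 for Krt8 and Krt19, the highest of the 15 pairs, and 0.35 for the partners Krt8 and Krt18. Krt7 had r of -0.27 with Krt8 and -0.59 with Krt23. These values include the difference between the groups, and within the 4 tumours of a group they could be unlike the pooled one. For Krt8 and Krt20 r was 0.98 within Trp53ΔIECAktE17K and 0.90 within Trp53ΔIEC tumours, beside 0.57 over all 8, and for Krt7 and Krt8 it was -0.75 and 0.58. Among 12916 genes ranked by r, those most like Krt8 were Vasp, an actin filament regulator (r = 0.99), Herc4 and Paqr4 (both 0.98). Krt19 was followed most closely by Dnajb2, H13 and Txnrd1 (all 0.96), the last of which encodes a thioredoxin reductase. Krt18 was most like Nectin2, a cell adhesion gene (0.97), Slc4a2, an anion exchanger (0.95), and Arrdc1 (0.95). Krt20 was most like Zswim6 (0.98), Kalrn (0.96) and Areg, which encodes the EGF receptor ligand amphiregulin (0.95). Krt7 was most like Simc1, Siah1b and Alg13 (0.96, 0.95 and 0.95), and Krt23 most like Aplp2 (0.99), Tubb4a and Zfp715 (both 0.96). With 8 tumours and this many genes, high values of r occur for any gene, and all points share the same libraries.

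Other markers of epithelium were lower in estimate in the same tumours. Of 15 general epithelial markers tested, 14 had a negative log2 fold change with a median of -0.59, and edgeR called 0 of them (8 at an unadjusted p under 0.05), DESeq2 called 6 lower and limma-voom 0. Esrp1, an epithelial splicing factor gene, had 203 ± 30.7 CPM in Trp53ΔIECAktE17K tumours and 284 ± 31.9 CPM in Trp53ΔIEC tumours (edgeR adjusted p = 0.107), and Spint1, a protease inhibitor gene, had 126 ± 49.1 and 228 ± 30.2 CPM (adjusted p = 0.110). Without Trp53ΔIECAktE17K replicate 4 both passed the test (adjusted p = 0.0377 and 0.0130). Epcam and Cdh1, which define epithelium, and Vil1, a gene of gut epithelium, were present in every tumour. The list mixes genes of epithelia in general with genes of gut epithelium such as Vil1, Cdx1 and Cdx2 (log2 fold changes -1.21, -0.77 and -0.37). Of the general ones Epcam and Cdh1 had -0.60 and -0.48, and Grhl2 and Elf3 had -0.01 and 0.04. These genes were picked after their values were seen. Less epithelium and a less intestinal epithelium cannot be told apart with this list. The summed level of the 15 markers was 5088 to 10446 CPM in Trp53ΔIECAktE17K tumours, where replicate 4 was the highest, and 9349 to 10614 CPM in Trp53ΔIEC tumours. The part of this difference in the keratin values was not tested directly, but each keratin can be read beside it.

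Relative to the mean log2 CPM of the 15 epithelial markers, Krt19 was 2.95, 3.15, 2.93 and 3.13 higher in Trp53ΔIECAktE17K tumours and 2.63, 2.91, 2.63 and 2.80 higher in Trp53ΔIEC tumours. The groups did not overlap on this scale for Krt19 alone of the 6, by the margin of 1 tumour at 2.93 over 1 at 2.91, and 16.9% of all genes had no overlap on it. Krt20 was 0.60, 0.83 and 1.06 above the markers in Trp53ΔIECAktE17K replicates 1, 2 and 4 and 0.36 below them in replicate 3 (a difference of -0.36). In Trp53ΔIEC tumours its differences were -1.04, -1.61, 0.02 and -0.84. Krt7 lay 1.68, 1.85, 2.45 and 0.87 above the markers in Trp53ΔIECAktE17K tumours and 0.85, 0.34, 0.32 and 1.14 above them in Trp53ΔIEC tumours. When libraries were scaled by the summed counts of the 15 markers in place of TMM, the log2 fold change of all genes had a median of 0.65. On that scale Krt20 had 1.30 and Krt7 1.06 (edgeR adjusted p = 0.0525 and 0.0529), which is 0.65 and 0.41 above that median. Their unadjusted p was under 0.05, as for 38.5% of all genes on that scale. Krt8, Krt18 and Krt19 changed sign, to 0.04, 0.32 and 0.25 (adjusted p = 0.907, 0.397 and 0.392), and all 3 lay below the shifted median. Krt23 had -0.84 (adjusted p = 0.392). None of the 6 passed on this scale either, where 12.6% of all genes did.

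**Figure D4:**
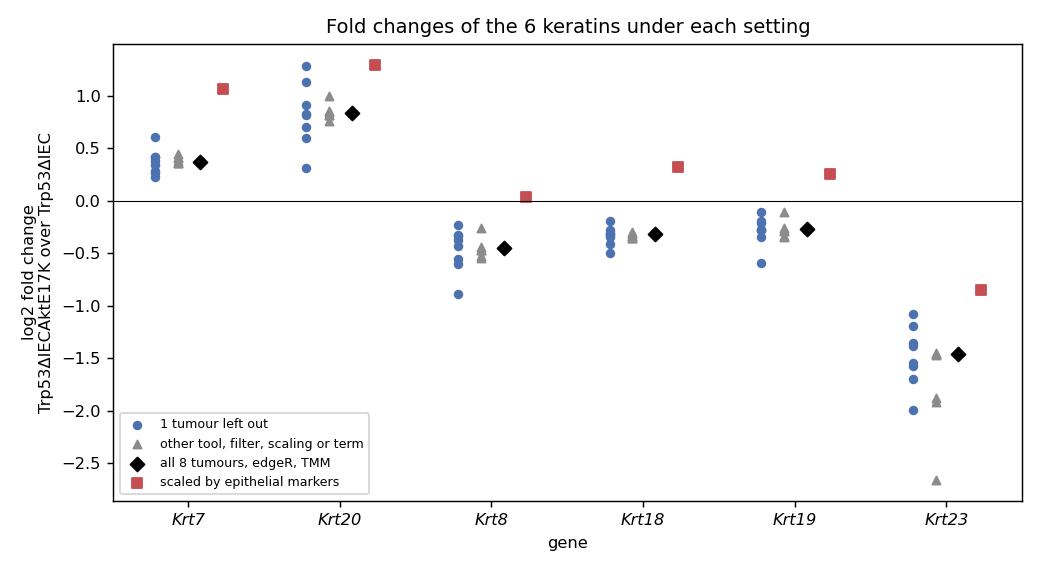
Log2 fold change of Trp53ΔIECAktE17K over Trp53ΔIEC tumours (y axis) for each simple keratin (x axis), with all 8 tumours in edgeR (black), with 1 tumour left out (blue), with another tool, filter, scaling or term (grey) and with libraries scaled by the epithelial markers (red). Krt7 and Krt20 stay above 0 and Krt23 below 0 in all settings shown, and Krt8, Krt18 and Krt19 cross 0 when scaled by the epithelial markers.

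Genes that bind keratin filaments gave no call in edgeR, and genes of other intermediate filaments gave several. Of 10 tested genes that anchor or bind keratin filaments edgeR called 0, with 2 below 0.05 before adjustment, DESeq2 called 1 lower and limma-voom 0, and their median log2 fold change was -0.07. The desmosomal cadherin gene Dsg2 had 259 ± 81.1 CPM in Trp53ΔIECAktE17K tumours and 498 ± 156 CPM in Trp53ΔIEC tumours (edgeR adjusted p = 0.113), and the plakophilin gene Pkp2 had 60.9 ± 15.4 and 88.2 ± 15.2 CPM (adjusted p = 0.185). Of 11 other intermediate filament genes, whose products form filaments apart from keratin, 5 rose and 0 fell, beside 3.44% higher and 0.756% lower calls over all genes. The 5 became 1 without Trp53ΔIECAktE17K replicate 1 or Trp53ΔIEC replicate 3 or 4, and 2 without Trp53ΔIEC replicate 1 or 2. They became 3 without Trp53ΔIECAktE17K replicate 2, and 1 with a replicate block. Over all genes the higher calls fell from 569 too, to 64 to 252 in these removals and to 48 with the block. The block follows replicate numbers, and tumours with equal numbers showed no likeness. The 5 called genes include Des, the filament of muscle, at 222 ± 73.1 and 15.9 ± 4.53 CPM (edgeR adjusted p = 0.00196). Also called were its muscle partner Synm at 21.8 ± 8.41 and 5.65 ± 0.978 CPM (adjusted p = 0.0232) and the neurofilament gene Nefl at 2.62 ± 1.32 and 0.207 ± 0.111 CPM (adjusted p = 0.0205).

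The stratified epithelium keratins behaved otherwise in the same libraries. Of 11 tested, 4 rose and 0 fell, with a median log2 fold change of 4.60 beside -0.29 for the simple keratins. Krt5, the basal cell keratin, had 4606, 121, 2.35 and 629.9 CPM in Trp53ΔIECAktE17K tumours and 0.115, 0.714, 0.112 and 0.0465 CPM in Trp53ΔIEC tumours (edgeR adjusted p = 0.0361). Krt6a and Krt6b, which are near copies of each other, rose by 7.03 and 10.52 on the log2 scale (adjusted p = 0.0254 and 0.0415). The fitted changes of Krt5 and Krt6b rest on very few reads in Trp53ΔIEC tumours. The calls depended on the tool and on the tumours kept. Of the 11, limma-voom called 0 and DESeq2 called 9. With edgeR 0 were called when any 1 of the 4 Trp53ΔIEC tumours was left out. The count was 1 without Trp53ΔIECAktE17K replicate 1 or 2, 7 without replicate 3 and 3 without replicate 4. Over all genes the higher calls fell too, from 569 to 217, 64, 72 and 67 without Trp53ΔIEC replicates 1 to 4. Krt5 kept a log2 fold change of 11.97 to 13.75 in those 4 removals, so the lost calls do not single out 1 Trp53ΔIEC tumour. In Trp53ΔIECAktE17K replicate 1 the stratified keratins summed to 18535 CPM and the 6 simple keratins to 4375 CPM. In the other 3 Trp53ΔIECAktE17K tumours the stratified sum was 885, 243 and 3561 CPM beside 5486, 3944 and 7780 CPM of simple keratins, and in Trp53ΔIEC tumours it was 105 to 231 CPM beside 5293 to 7226 CPM. Trp53ΔIECAktE17K replicate 1, the highest in stratified keratins, had the lowest Krt18 of the 8 tumours and the highest Krt23 of its group. Replicate 4, the next highest in stratified keratins, had the highest Krt8, Krt19 and Krt20 of the 8 tumours and 86.5 CPM of Krt23. Replicate 3, the lowest of its group in stratified keratins, had the lowest Krt23, at 12.8 CPM. The part of squamous cells in the simple keratin values was not tested.

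**Figure D5:**
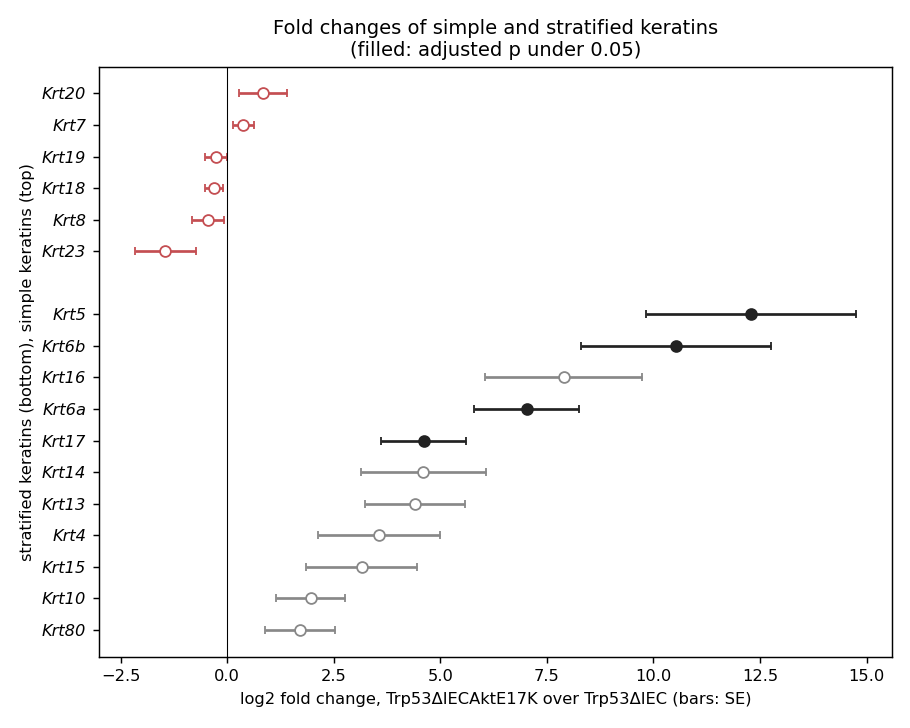
Log2 fold change of Trp53ΔIECAktE17K over Trp53ΔIEC tumours (x axis, bars are the SE) for the 6 simple keratins (red, top) and the 11 tested stratified keratins (grey and black, bottom); filled points passed the edgeR test. The simple keratins lie between -1.46 and 0.84 and none passed, and the stratified keratins lie between 1.71 and 12.29 with 4 passing.

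Markers of intestinal cell states, among which Krt20 is usually counted, gave 4 calls in edgeR, most of which did not hold when 1 tumour was left out. Of 14 colonocyte differentiation markers 2 rose and 0 fell, with a median log2 fold change of 0.54. By estimate 10 were positive and 4 negative, and DESeq2 called 5 higher and 1, Car2, lower. Car2 had the lowest estimate, -1.70, with 158 ± 107 CPM in Trp53ΔIECAktE17K and 513 ± 245 CPM in Trp53ΔIEC tumours (edgeR adjusted p = 0.159). Guca2a, which encodes the peptide guanylin, had 134 ± 63.9 CPM in Trp53ΔIECAktE17K tumours and 28.3 ± 10.8 CPM in Trp53ΔIEC tumours (edgeR adjusted p = 0.0271), and the phosphate transporter gene Slc20a1 had 137 ± 20.6 and 90.9 ± 6.63 CPM (adjusted p = 0.0488). Of 9 goblet cell markers 1 rose, the transcription factor gene Spdef at 30.1 ± 13.1 and 10.2 ± 2.27 CPM (adjusted p = 0.0494). Of 9 crypt stem cell markers 1 fell, Ascl2 at 10.96 ± 5.27 and 42.6 ± 8.42 CPM (adjusted p = 0.0463), and their median log2 fold change was -0.08. The list held estimates of both signs, and DESeq2 called Smoc2 and Olfm4 higher and Ascl2 and Axin2 lower, genes chosen after their values were seen. Slc20a1, Spdef and Ascl2 each lost the edgeR call in 7 of 8 removals of 1 tumour and Guca2a in 4. With a replicate block edgeR called none of these 4. That block follows replicate numbers, and tumours with equal numbers showed no likeness. Over all genes 569 were called higher and 125 lower. Leaving out 1 tumour gave 64 to 702 and 10 to 247, and the block gave 48 and 2. The tool limma-voom called 1 colonocyte marker higher, 1 stem cell marker lower and 0 goblet markers.

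Simple keratins are also made by cells outside the gut epithelium, and markers of such cells were low or uneven. The mesothelial gene Wt1 rose, with 5.04, 4.94, 0.882 and 7.87 CPM in Trp53ΔIECAktE17K tumours and 0 to 0.0465 CPM in Trp53ΔIEC tumours (edgeR adjusted p = 0.0107), and it was the 1 call among 4 mesothelial markers tested. Upk3b, a defining mesothelial marker, was listed at 0 in all Trp53ΔIEC tumours and reached 1.14 CPM in Trp53ΔIECAktE17K tumours. The 7 mesothelial markers in the tables summed to 14.95 to 332 CPM in Trp53ΔIECAktE17K tumours, most of it Msln, and to 29.4 to 109 CPM in Trp53ΔIEC tumours. Of 5 urothelial markers tested the 1 call was Krt5, already described, and the defining genes Upk1a, Upk2 and Upk3a stayed under 8 CPM in all tumours. Of 6 hepatocyte markers Crp fell, with 0.0106 ± 0.0212 and 5.11 ± 0.388 CPM (edgeR adjusted p = 0.00135). By estimate 3 of the 6 were positive and 3 negative, among the latter Alb at 5.18 ± 3.57 and 25.7 ± 6.21 CPM (edgeR adjusted p = 0.0866). The 9 in the tables summed to 14.0 to 136 CPM and 38.1 to 71.8 CPM. The sum of 136 CPM was that of Trp53ΔIECAktE17K replicate 3, which had 126 CPM of Fgb. Krt7, Krt8, Krt18 and Krt19 had 430.0 to 3368 CPM. None of these values is scaled by gene length, and the keratin RNA made per mesothelial, urothelial or liver cell is not known here. The part of such cells in the keratin values was not tested.

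Markers of cells that make no simple keratin, or little, changed between the same groups. Of 9 fibroblast and matrix markers 5 rose, on the log2 scale Fbn1 by 1.77, Mfap5 by 4.61 and Col1a2 by 1.21 (edgeR adjusted p = 0.0124, 0.0142 and 0.0296) with summed levels of 4264 to 6904 and 2203 to 3366 CPM. That count was 0 without Trp53ΔIEC replicate 2, 3 or 4, and 2 without Trp53ΔIECAktE17K replicate 1 or 2. It was 3 without Trp53ΔIEC replicate 1, and 0 with a replicate block, which follows replicate numbers whose equal values showed no likeness between tumours. Over all genes the higher calls fell from 569 as well, to 64 to 252 in these removals and to 48 with the block. By estimate 8 of the 9 fibroblast and matrix markers were positive and 1 was negative. The negative one was the fibroblast gene Pdgfra, with 83.0 ± 32.8 CPM in Trp53ΔIECAktE17K and 148 ± 50.1 CPM in Trp53ΔIEC tumours. Its log2 fold change was -0.84 (edgeR adjusted p = 0.225). Of 8 smooth muscle markers 6 rose, among them Cnn1 and Tagln at 3.13 and 2.28 (adjusted p = 0.00189 and 0.00532), with sums of 1076 to 1767 and 272 to 454 CPM. Of 7 heart muscle markers 5 rose, and the other 2, Tnnt2 and Myl7, were not called. Myh6 had 53.5 ± 4.42 and 0.0748 ± 0.101 CPM, Actc1 34.9 ± 3.27 and 0.342 ± 0.147 CPM and Ryr2 3.72 ± 0.307 and 0.113 ± 0.0572 CPM (edgeR adjusted p = 0.000818, 0.000246 and 0.00135). Myh6 was nearly level over Trp53ΔIECAktE17K tumours (52.6, 47.6, 56.8 and 57.0 CPM). In Trp53ΔIEC tumours Crp was similarly even (5.17, 5.64, 4.80 and 4.84 CPM). The source of these reads was not tested, and a difference between genotypes cannot be told apart here from one between the 2 sets of libraries. Of 12 leukocyte markers edgeR called 0, with 1 below an unadjusted p of 0.05, and DESeq2 and limma-voom also called 0. Cd68 and Itgam had adjusted p values of 0.182 and 0.288, and the sums were 275 to 932 and 112 to 668 CPM. Levels are shares of a scaled library total, so stromal and epithelial levels are not independent. In Trp53ΔIECAktE17K replicates 1 to 4 the general epithelial markers summed to 5653, 6447, 5088 and 10446 CPM. The fibroblast and matrix markers summed there to 6904, 6888, 4264 and 4631 CPM. The part of stromal reads in the keratin values was not tested. Of the 20 called genes named from these lists, 7 kept their call in all 8 removals of 1 tumour, namely Des, Crp, Actc1, Myh6, Ryr2, Cnn1 and Tagln, and the other 13 lost it in 1 to 7 removals (adjusted p up to 0.135).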

How the data were processed

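The authors deposited, for each tumour, raw counts of reads per Ensembl gene. Per the submitters' processing notes HTSeq 0.6, STAR 2.3.0, CASAVA 1.8.2, DESeq2 1.8.1 and SAMtools 1.2 were used with mm10, in roles that are not stated; no source used here gives the annotation release or the strand setting. Per the labels' protocols a TruSeq mRNA kit was used on RNeasy-purified RNA. The 5 closing lines of each table, for reads given to no gene, were set aside: no feature 9.74% to 11.7% and ambiguous 1.93% to 2.32% of uniquely aligned reads. Symbols and lengths came from GENCODE M21 (95.4% of identifiers matched) and promoters from RefSeq (5 of 6 members matched; Krt19 was not matched).

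edgeR 4.0.16 in R 4.3.3 was used with filterByExpr, TMM and robust quasi-likelihood tests with the group as the only term. The script was tested on simulated data. Alternatives were RLE factors, DESeq2 1.42.0, limma-voom (limma 3.58.1), no filter beyond 1 count, a replicate block, the title letter, epithelial scaling and each tumour left out. Log2 CPM used a prior count of 2. The members and the 14 lists beside them were chosen with earlier results of these data known. Named genes are the 6 members, up to 3 called genes per list or the 2 with the lowest p where none passed, and the 3 genes most like each member with a mean log2 CPM of at least 1, predicted models left out; Epcam, Cdh1, Vil1, Msln and the Upk genes were named as defining markers. Pdgfra, Car2, Alb and Fgb were named after their values were seen. Each tumour came from a separate mouse, so p-values measure the spread between mice.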

Additional observations from a re-analysis of the deposited data

Results flagged for a closer look

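No value of the 6 simple keratins, and none of the ratios between them, stood apart from the other 3 tumours of its group by Dixon's test. Among 76 sets of values examined 8 did, all of other genes, where chance alone sets about 1 in 20 groups apart. In Trp53ΔIECAktE17K tumours the highest Krt5 was 4606 CPM, in replicate 1, next to 629.9 CPM. The highest Cd68 there was 147 CPM next to 45.4 CPM, the highest Esrp1 249 CPM next to 189 CPM, the highest Crp 0.0423 CPM next to 0, and the lowest Ascl2 3.15 CPM next to 12.9 CPM. In Trp53ΔIEC tumours the highest Krt5 was 0.714 CPM next to 0.115 CPM, the highest Cnn1 16.8 CPM next to 11.3 CPM and the highest Des 22.6 CPM next to 14.6 CPM.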

How the results depend on the processing

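Over 15 alternatives for each of the 6 keratins, 87 of 90 log2 fold changes kept their sign and none passed the test. The other 3 changed sign with libraries scaled by the epithelial markers, Krt8 to 0.0418, Krt18 to 0.32 and Krt19 to 0.25; that scaling raises all genes by a median of 0.65. With 1 tumour left out the ranges were 0.23 to 0.60 for Krt7, -0.89 to -0.23 for Krt8, -0.49 to -0.19 for Krt18, -0.59 to -0.11 for Krt19, 0.31 to 1.28 for Krt20 and -1.99 to -1.07 for Krt23. Over all genes 569 were called higher and 125 lower. DESeq2 called 1721 and 768, the letter of the titles as a term left 90 and 6 (the names of the deposited tables give other letters, under which it could not be fitted), and leaving out 1 tumour gave 64 to 702 and 10 to 247. Tumours with equal replicate numbers showed no likeness (r of deviations from -0.243 to 0.00928, beside -0.242 to 0.25 for unequal numbers). With so few tumours these values cannot decide whether equal numbers pair the samples. With the replicate block 48 genes were called higher and 2 lower, and the log2 fold change of Krt23 was -1.88 (edgeR adjusted p = 0.133). With raw counts in place of length-scaled levels the Krt8 to Krt18 ratio of Trp53ΔIEC tumours had a mean of 1.92, and the type II to type I ratio was 0.618 in Trp53ΔIECAktE17K tumours and 0.570 in Trp53ΔIEC tumours. With coding lengths, chosen after seeing the data, it was 0.535 in Trp53ΔIECAktE17K tumours. Of the lists beside the keratins, DESeq2 called 5 colonocyte markers higher and 1 lower (edgeR 2 and 0), 2 stem cell markers higher and 2 lower (0 and 1), 2 goblet markers higher (1), 6 epithelial (0) and 2 hepatocyte markers lower (1), and 3 mesothelial markers higher (1), 2 of which edgeR filtered out. With 4 tumours a group, the intervals of Krt20 and Krt23 span more than a 4-fold range.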
